A study of Mus musculus with 7 samples.

Results

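Accessible chromatin at 4 Tcf/Lef transcription factor genes, Tcf7, Tcf7l1, Tcf7l2 and Lef1, and at the direct Wnt targets Axin2 and Sp5, was compared between WT and Smad2/3 DKO epiblast-like cells (EpiLCs). ATAC-seq marks open DNA by the insertion of a transposase, Tn5. The deposited table lists 75880 ATAC-seq sites of the mouse genome (mm10), and 62 of them had their midpoint within 50 kb of a transcription start site (TSS) of one of the 6 genes. The TSSs were those of curated RefSeq transcripts, and the sites of each gene were taken by distance alone. Tcf7 had 4 sites, Tcf7l2 13, Lef1 12, Axin2 17 and Sp5 4, which made 50 sites at 5 loci, and Tcf7l1 had 12. Tcf7l1 was kept apart because of its accessibility values, since it lies in a stretch of chromosome 6 in which nearly all sites are lower in DKO.

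The WT cells were the CCE embryonic stem cell (ESC) line of the 129/Sv//Ev strain, with 3 libraries from separate differentiations. The Smad2/3 DKO cells were 1 clone, KT15.1F6, also with 3. They carry the homozygous Smad2 tm1Rob allele, and exon 1 of Smad3 was deleted by CRISPR in that Smad2-/- line. Since there was 1 mutant clone, the genotype and the clone cannot be told apart. Both lines were XY. ESCs were held in 2i and LIF medium, which includes 3 µM CHIR99021, an inhibitor of Gsk3, and were then differentiated for 48 h in 20 ng/ml Activin A, 12 ng/ml Fgf2 and 1% KSR into day 2 EpiLCs. Each transposition used 75000 cells, and 1 further library of 100 ng WT EpiLC genomic DNA treated with Tn5 served as control and has no values in the table.

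Each site carries 1 mean per genotype, a concentration that is the log2 of its mean normalized read count over the libraries. A difference below is the DKO concentration minus the WT concentration. The spread between the libraries and their depths are not known from these values, so no difference was tested, and no error can be given. In bulk chromatin, fewer cells with an open site and fewer insertions per cell cannot be told apart. A site was counted as lower or higher where the difference passed 1.5-fold (0.585 on the log2 scale). By this rule 16% of all 75880 sites were lower in DKO and 8.51% were higher, with a median difference of -0.08. Of the sites with a concentration under 4 (16 reads), 29.8% were lower and 20.5% higher, against 12.4% and 5.4% of those at 4 or more. At the targeted genes, the Smad3 promoter site went from 5.42 in WT to -0.10 in DKO, in which exon 1 was removed. The Smad2 promoter site was at 8.35 and 8.28, and is no check of the Smad2 allele, whose deleted part is not given in the sources used here. Of 5 epiblast marker genes, Fgf5, Pou3f1, Pou5f1 and Dnmt3b had a site at or above 4 in WT within 1 kb of the TSS, and Otx2 had its nearest site 1003 bp away (5.86 in WT, 5.76 in DKO). Within 50 kb of these 5 genes, 12 of 41 sites (29.3%) were lower and 2 (4.88%) higher. Lower sites were 4 of 6 at Fgf5, 5 of 12 at Pou3f1, 2 of 6 at Pou5f1 and 1 of 7 at Otx2. Of the 10 sites at Dnmt3b, none was lower and 1 was higher, and the other higher site was at Pou3f1.

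In canonical Wnt signalling, ligands at Frizzled and Lrp5/6 receptors stop the destruction complex of Axin, Apc and Gsk3 from marking β-catenin for degradation. β-catenin then enters the nucleus and binds Tcf/Lef proteins, which sit on DNA through an HMG box and otherwise recruit Groucho/Tle corepressors. Lef1 and Tcf7 are mostly activators, Tcf7l2 can do either, and Tcf7l1 is the main repressor in ESCs, where it restrains pluripotency genes. In the epiblast, Nodal signalling through Smad2/3 and Wnt signalling together direct the primitive streak.

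The sequences of chosen sites are shown because they carry the strings that Tcf/Lef proteins are known to prefer, or because they belong to sites with large differences. Sequences are from the plus strand of the RefSeq mouse assembly (GRCm38, the C57BL/6J reference, not the 129 strain of the cells), 5′ to 3′, with each CTTTGAT or CTTTGAA match on either strand in capitals. Windows were kept outside annotated UTRs. The first 5 were chosen for the strings, in intronic or intergenic DNA.
Axin2 site spanning the TSS, chr11:108921194-108921285: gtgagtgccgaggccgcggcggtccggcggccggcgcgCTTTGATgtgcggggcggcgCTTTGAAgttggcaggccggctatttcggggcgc
Axin2 first intron, 2741 bp downstream, chr11:108922852-108923151: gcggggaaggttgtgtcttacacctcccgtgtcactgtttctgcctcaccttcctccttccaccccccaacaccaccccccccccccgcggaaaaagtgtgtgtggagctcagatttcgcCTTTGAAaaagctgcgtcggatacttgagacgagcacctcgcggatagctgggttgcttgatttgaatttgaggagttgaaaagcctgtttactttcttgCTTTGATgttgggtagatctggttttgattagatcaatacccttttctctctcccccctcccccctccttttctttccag
Axin2 intergenic, 41466 bp downstream, chr11:108961666-108961965: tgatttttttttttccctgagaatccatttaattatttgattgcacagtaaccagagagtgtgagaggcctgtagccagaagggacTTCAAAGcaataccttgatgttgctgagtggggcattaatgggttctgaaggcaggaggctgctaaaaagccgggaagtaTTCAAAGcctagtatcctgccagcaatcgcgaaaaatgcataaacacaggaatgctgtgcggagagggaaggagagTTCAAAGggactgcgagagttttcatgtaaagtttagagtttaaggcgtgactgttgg
Lef1 intergenic, 25187 bp upstream, chr3:131084899-131085198: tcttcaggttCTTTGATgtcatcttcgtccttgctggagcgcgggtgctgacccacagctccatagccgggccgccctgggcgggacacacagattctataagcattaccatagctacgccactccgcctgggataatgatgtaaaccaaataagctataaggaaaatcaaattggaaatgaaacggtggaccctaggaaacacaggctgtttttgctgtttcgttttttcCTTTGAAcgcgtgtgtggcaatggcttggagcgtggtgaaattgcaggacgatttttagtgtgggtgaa
Sp5 intergenic, 2863 bp upstream, chr2:70471915-70472214: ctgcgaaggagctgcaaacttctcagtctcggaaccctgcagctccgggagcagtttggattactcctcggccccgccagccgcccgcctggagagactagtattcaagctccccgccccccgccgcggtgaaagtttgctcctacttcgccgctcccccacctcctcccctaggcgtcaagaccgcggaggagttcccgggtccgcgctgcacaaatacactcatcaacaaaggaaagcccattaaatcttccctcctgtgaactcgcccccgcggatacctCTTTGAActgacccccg
The next sequence holds a string in the 5′ UTR of Sp5, cut to the match and its flanks.
Sp5 exon 1, chr2:70475001-70475029: gagccgctattCTTTGATgattgggtagc
The last 5 had a difference past the threshold.
Tcf7l2 intron, 21805 bp downstream, chr19:55763466-55763765: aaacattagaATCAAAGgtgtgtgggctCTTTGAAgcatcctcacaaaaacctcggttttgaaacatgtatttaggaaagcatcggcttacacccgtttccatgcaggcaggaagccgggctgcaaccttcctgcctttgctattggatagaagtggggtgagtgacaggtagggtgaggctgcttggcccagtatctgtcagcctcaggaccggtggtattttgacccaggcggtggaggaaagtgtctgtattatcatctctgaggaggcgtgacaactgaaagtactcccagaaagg
Tcf7l2 intron, 12560 bp downstream, chr19:55754230-55754510: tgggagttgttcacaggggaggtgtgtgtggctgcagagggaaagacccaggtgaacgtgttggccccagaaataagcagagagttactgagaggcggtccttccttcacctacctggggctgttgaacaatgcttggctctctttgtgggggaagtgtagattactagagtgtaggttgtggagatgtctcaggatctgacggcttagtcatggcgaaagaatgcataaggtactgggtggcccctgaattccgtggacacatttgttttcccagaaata
Axin2 intergenic, 11579 bp upstream, chr11:108908640-108908900: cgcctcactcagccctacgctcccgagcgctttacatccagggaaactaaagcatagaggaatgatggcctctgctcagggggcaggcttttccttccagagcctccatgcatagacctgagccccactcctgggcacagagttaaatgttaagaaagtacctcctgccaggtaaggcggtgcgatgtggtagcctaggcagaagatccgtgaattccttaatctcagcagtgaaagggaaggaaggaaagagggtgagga
Axin2 intron, 15481 bp downstream, chr11:108935681-108935980: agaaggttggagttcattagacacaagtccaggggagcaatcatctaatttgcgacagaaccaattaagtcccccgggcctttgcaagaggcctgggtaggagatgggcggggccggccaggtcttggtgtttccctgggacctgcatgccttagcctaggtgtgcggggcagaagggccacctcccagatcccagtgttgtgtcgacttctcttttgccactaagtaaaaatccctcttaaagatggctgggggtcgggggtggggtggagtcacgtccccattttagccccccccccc
Tcf7l1 intron, 40390 bp downstream, chr6:72748506-72748805: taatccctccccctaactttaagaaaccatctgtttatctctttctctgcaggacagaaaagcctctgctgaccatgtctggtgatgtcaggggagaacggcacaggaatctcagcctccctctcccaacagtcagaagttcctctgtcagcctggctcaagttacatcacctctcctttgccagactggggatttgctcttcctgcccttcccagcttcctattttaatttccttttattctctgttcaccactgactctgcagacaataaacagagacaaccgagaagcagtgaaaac

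Across the 5 loci other than Tcf7l1, most sites were within 1.5-fold between genotypes. Of the 50 sites, 8 (16%) were lower in DKO, 4 (8%) were higher and 38 stayed within 1.5-fold, against 16% and 8.51% of all sites, or 12.7% and 7.96% of those within 50 kb of any curated TSS. At a threshold of 2-fold, 1 was lower and 2 were higher, against 6.35% and 3.01% of all sites. The median difference was -0.17 (quartiles -0.39 and 0.09), and 33 of 50 sites were below 0, as were 43586 of all 75880. At 41 of them the concentration was 4 or more, and 5 (12.2%) of those were lower and 2 (4.88%) higher, again near the 12.4% and 5.4% of all such sites. Relative to the median of all sites, 7 were lower and 6 higher. Relative to the median of the sites 50 kb to 1 Mb from the same gene, 5 were lower and 8 higher.

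**Figure D1:**
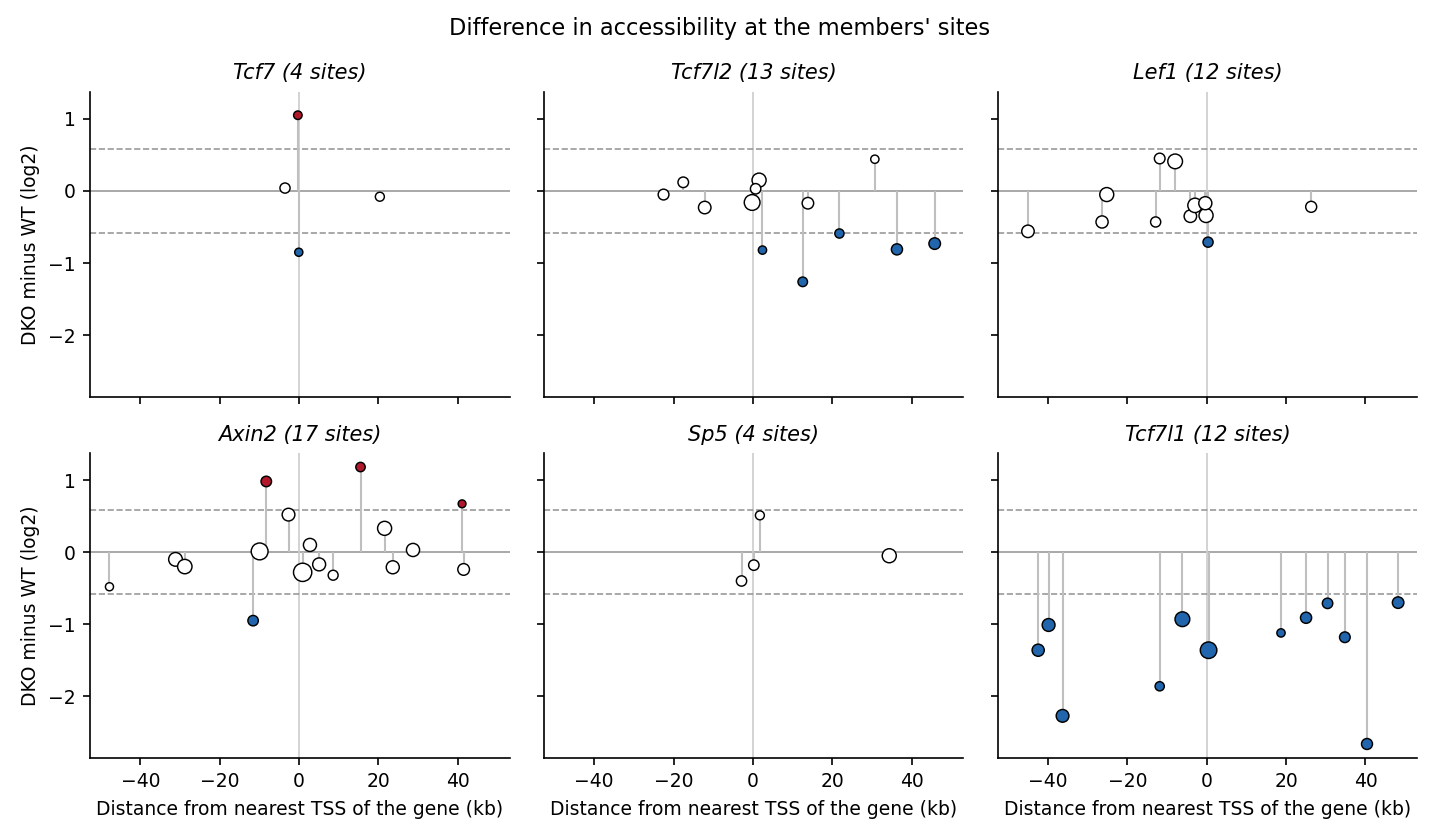
Difference between DKO and WT concentration (log2, vertical axis) at each site of the 6 genes against its distance from the gene's nearest TSS (kb, positive in the direction of transcription). Larger points have a higher concentration, dashed lines mark 1.5-fold, and blue and red points are lower and higher in DKO. Tcf7l2 has 5 blue points and no red one, Axin2 has 1 blue and 3 red, and all 12 points of Tcf7l1 are blue.

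Tcf7, which encodes the factor also called TCF1, had the lowest promoter accessibility per kb of the 6 genes in both genotypes. The site that spans one of its TSSs (chr11:52282560-52282770) had a concentration of 3.72 in WT and 2.87 in DKO, a difference of -0.85, or 13.2 against 7.31 normalized reads. The site centred 306 bp upstream of the other TSS (chr11:52283180-52283460) went the other way, from 2.93 to 3.98, a difference of 1.05. Both promoter sites passed the threshold, in opposite directions, and both had concentrations under 4, the range in which 29.8% of all sites were lower and 20.5% higher. The upstream one holds 1 Tcf/Lef string in a GC content of 82.9%. The other 2 Tcf7 sites were level, at 3.84 and 3.76 in an intron 20355 bp downstream and at 4.40 and 4.44 at 3541 bp upstream.

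Tcf7l2 encodes TCF4, the factor that maintains intestinal crypt stem cells, and had 5 lower sites of 13 and none higher. The site that spans its first TSS (chr19:55741300-55741940) was at 7.73 in WT and 7.57 in DKO, a difference of -0.16. The site 689 bp from its second, internal TSS was at 4.56 and 4.59. Both promoter sites were within 1.5-fold, and the lower sites lay inside the gene. Further sites within 1.5-fold lay inside it too. One was 1560 bp after the first TSS (0.15). Others were 17546 bp before the second TSS (0.12), 13864 bp after it (-0.17) and 30729 bp after it (0.44). The 4 listed sites between 2415 bp and 45810 bp downstream of the first TSS, all intronic, were all lower. At 2415 bp the concentration was 3.78 in WT and 2.96 in DKO (-0.82). At 12560 bp, whose sequence is shown above, it was 4.60 and 3.34 (-1.26, the largest difference at this gene). These 4 sites lie nearer to a TSS of Gm31734, an annotated gene that overlaps the Tcf7l2 promoter, than to one of Tcf7l2. At 21805 bp it was 4.18 and 3.59 (-0.59), just past the threshold, where a rounding of 0.01 would change the call. At 45810 bp it was 5.52 and 4.79 (-0.73). The remaining lower site covered a coding exon near the 3′ end (chr19:55931420-55931820), at 5.30 and 4.49 (-0.81). Over both genotypes, the lower sites at 2415 bp (3.43) and 21805 bp (3.91) had concentrations under 4. In that range 29.8% of all sites were lower. The 8 sites within the threshold, promoters included, had differences from -0.23 to 0.44. The surrounding 50 sites, 50 kb to 1 Mb away, had a median of -0.22, with 16% lower and 4% higher.

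Lef1, the lymphoid enhancer factor that mesoderm progenitors use downstream of Wnt, had 1 lower site of 12 and none higher. Its first-TSS site (chr3:131109660-131110600) was at 6.81 in WT and 6.47 in DKO, a difference of -0.34. The site 351 bp before its TSS at position 131112791 was at 6.15 and 5.98. The lower site lay 341 bp after the internal TSS at position 131156294, at 4.71 in WT and 4.00 in DKO (-0.71, 26.2 against 16.0 reads). Differences below 0 were seen at 10 of 12 sites, with a median of -0.28, and those 50 kb to 1 Mb away had a median of -0.24 over 71 sites. The 2 sites above 0 were an upstream one at 7952 bp, at 6.80 and 7.21 (0.41), and an intronic one at 4.45 and 4.90 (0.45). The site 45037 bp upstream, at 5.96 and 5.40 (-0.56), was just inside the threshold.

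**Figure D2:**
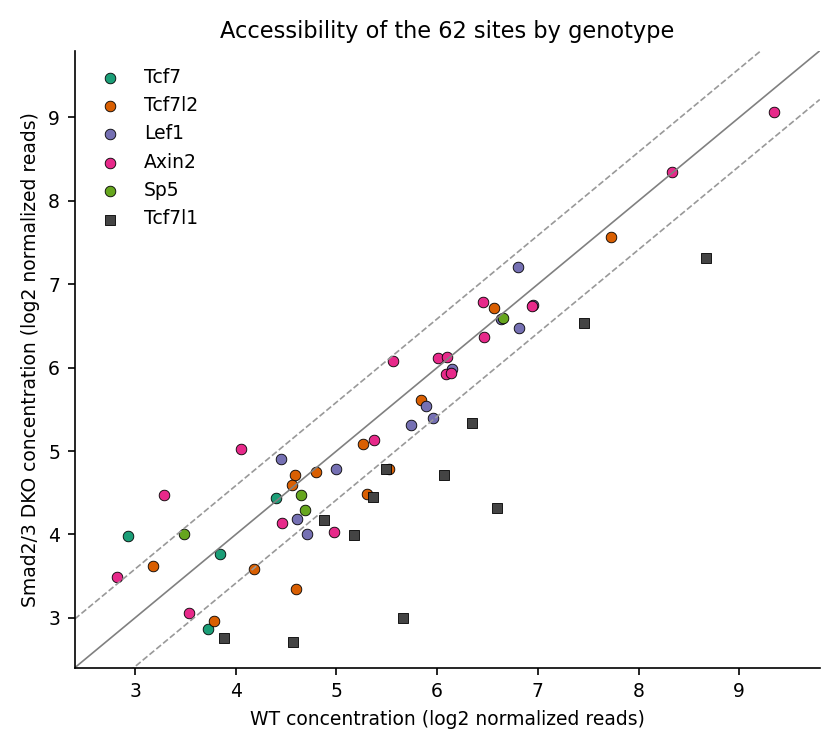
WT concentration (horizontal axis) against Smad2/3 DKO concentration (vertical axis), both as log2 mean normalized reads, for the 62 sites. The solid line marks equal values and the dashed lines 1.5-fold. The 12 Tcf7l1 squares lie below the lower dashed line, and the highest point, the Axin2 promoter at 9.35 and 9.07, lies close to the solid one.

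Axin2, the scaffold of the destruction complex that Wnt signalling itself switches on as negative feedback, had the highest site of the 62. This site of 2400 bp spans the TSS (chr11:108920050-108922450) and had 653 normalized reads in WT and 538 in DKO, concentrations of 9.35 and 9.07. Its difference of -0.28 was within 1.5-fold, and it holds 5 Tcf/Lef strings, 2 of them in the first sequence shown above. The first-intron site next to it, with 2 strings, was at 6.01 and 6.11. Around an upstream site of 2150 bp that was level at 8.33 and 8.34, 2 smaller sites differed in opposite directions. One, 11579 bp upstream of the TSS, was lower, at 4.98 in WT and 4.03 in DKO (-0.95), and is the only lower Axin2 site. The other, 8264 bp upstream, was higher, at 4.05 and 5.03 (0.98). The intronic site 15481 bp downstream had the largest difference of the gene, from 3.29 to 4.47 (1.18, 9.78 against 22.2 reads), and the site 41071 bp downstream went from 2.82 to 3.49 (0.67). The neighbour of the last one, 41466 bp downstream and with 3 Tcf/Lef strings, was at 5.37 and 5.13. Over both genotypes, the higher site at 41071 bp had a concentration of 3.2, and under 4 20.5% of all sites were higher. The 13 Axin2 sites within the threshold ran from -0.48 to 0.52, and the median over all 17 was -0.10. The 118 sites 50 kb to 1 Mb away had a median of -0.2, with 22% lower and 6.78% higher.

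Sp5, a zinc-finger transcription factor induced early by Wnt signalling, had no site past the threshold among 4. The site in its first exon, 237 bp after the TSS, was at 4.65 in WT and 4.47 in DKO (-0.18), with 2 Tcf/Lef strings. The site 2863 bp upstream was at 4.69 and 4.29 (-0.40), with 1. The site in a coding exon 1762 bp downstream was at 3.49 and 4.00 (0.51, the largest difference of the gene), and the one in a coding exon of Erich2, 34362 bp downstream, at 6.65 and 6.60. The 46 sites 50 kb to 1 Mb away had a median of 0.15, with 3 lower and 8 higher.

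At Tcf7l1 every site was lower in DKO, and so was nearly every site around it. The 12 differences ran from -0.70 to -2.66 with a median of -1.15. The 2730-bp site spanning its TSS (chr6:72787210-72789940) had 407 normalized reads in WT and 159 in DKO, concentrations of 8.67 and 7.31 (-1.36). The largest difference was at the intronic site 40390 bp downstream, from 5.66 to 3.00 (-2.66). Next came a site 36320 bp upstream, from 6.59 to 4.32 (-2.27), and one 11845 bp upstream, from 4.57 to 2.71 (-1.86). The smallest was at 48230 bp downstream, from 5.49 to 4.79 (-0.70). The differences of the other 4 intronic sites lay between these values. At 34810 bp downstream, with 1 Tcf/Lef string, the concentration was 5.17 in WT and 3.99 in DKO (-1.18). At 30450 bp it was 4.88 and 4.17 (-0.71), at 25035 bp 5.36 and 4.45 (-0.91), and at 18720 bp 3.88 and 2.76 (-1.12). Upstream of the gene, 3 more intergenic sites were lower. The nearest, 6125 bp upstream, was at 7.46 and 6.53 (-0.93). The others, 39840 bp and 42465 bp upstream, were at 6.35 and 5.34 (-1.01) and at 6.07 and 4.71 (-1.36). Of the 81 sites 50 kb to 1 Mb away, 79 (97.5%) were lower and none was higher, with a median of -1.33. Measured against that median, 2 Tcf7l1 sites were lower and 2 higher, and the median difference was 0.18.

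The lower sites around Tcf7l1 formed a segment of 11.23 Mb (chr6:68829320-80057380) with 274 sites, found as a run of over 1 Mb in which the running median of 25 sites with concentrations from 4 upward was below -0.5. Of the 274, 257 were lower, none was higher and 270 were below 0. Without the 12 Tcf7l1 sites the median over 262 was -1.22, and 5 of the 12 were below the median of the whole segment. The same search over the genome found 3 other runs, none of which holds a site of the 6 genes. Counting all their sites, they were 2.33 Mb on chromosome 16 (36 of 38 sites below 0, median -0.76), 1.1 Mb on chromosome 19 (37 of 41, median -0.55) and 1.5 Mb on chromosome 1 (14 of 23, median -0.36). In the chromosome 6 segment, the largest Tcf7l1 difference ranked 23 of 274 and the promoter site 115. The 2 Mb before the segment held 86 sites with a median of -0.02, and the 2 Mb after it 40 with a median of -0.29. The number of DNA copies cannot be read from these values, and its part in the segment was not tested. The control library was of WT genomic DNA only and holds no reads of the DKO clone. Leaving out the segment, 15.7% of all sites were lower and 8.54% higher.

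**Figure D3:**
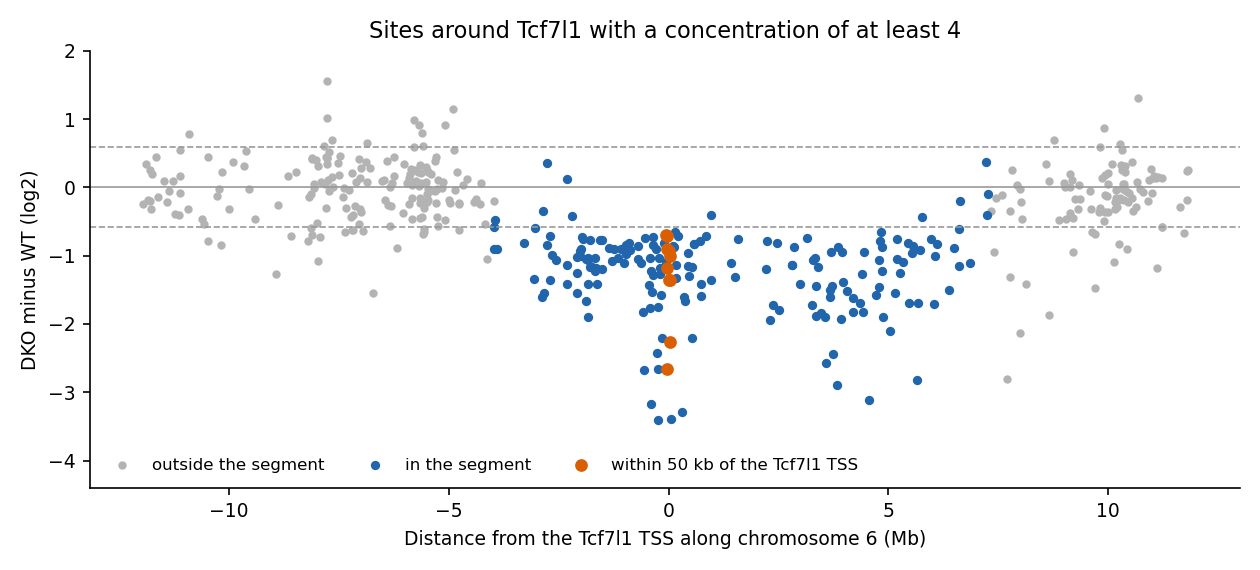
Difference between DKO and WT concentration (log2) against distance from the Tcf7l1 TSS along chromosome 6 (Mb, positive towards higher positions), for sites with a concentration of at least 4. Orange points are the 10 such Tcf7l1 sites, blue points the other sites of the segment and grey points sites outside it. The orange points lie within the range of the blue ones, and 98.4% of the segment's sites drawn here lie below 0.

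Within 1 kb of a TSS, 2 of 9 sites at the 5 loci were lower (Tcf7 and the internal Lef1 promoter) and 1 was higher (Tcf7), against 4.17% and 3.69% of all such sites. All 3 had a WT concentration under 5. To set the promoters in order, the site nearest to a TSS was scaled to its length, as log2 reads per kb. In WT the order was Tcf7l2 at 8.37, Axin2 at 8.09, Tcf7l1 at 7.22, Lef1 at 6.90, Sp5 at 6.39 and Tcf7 at 5.97 log2 reads per kb. In DKO it was Tcf7l2 at 8.21, Axin2 at 7.81, Lef1 at 6.56, Sp5 at 6.21, Tcf7l1 at 5.86 and Tcf7 at 5.12, so Tcf7l1 moved below Lef1 and Sp5 and the order of the others was kept. Whether neighbours in this order differ beyond the spread between libraries cannot be told. The difference at the Tcf7l1 promoter site, -1.36, was close to the median of -1.33 at the sites 50 kb to 1 Mb away.

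The string CTTTGAT or CTTTGAA, on either strand, was in 15 of the 62 sites (24.2%) and in 15.2% of all listed sites. The forms with 1 more base, CTTTGATC, CTTTGATG, CTTTGAAC and CTTTGAAG, which overlap the shorter ones, were in 14 sites (22.6%), beside 8.04% of all. In windows of 500 bp around the midpoints, which do not depend on the width of a site, the shorter strings were in 12 of 62 (19.4%) and in 16.1% of all. Axin2 had 6 of the 15 sites. Tcf7l2, Lef1, Sp5 and Tcf7l1 had 2 each, and Tcf7 had 1. At the 5 loci, 13 sites held a string, and 1 of these was lower (Tcf7l2, 21805 bp downstream) and 1 higher (Tcf7, 306 bp upstream), with a median difference of -0.16. The 37 sites without one had a median of -0.17, with 7 lower and 3 higher. Over the whole table, 1804 of 11553 sites with a string were lower and 721 higher, and of the 64327 without one 10305 were lower and 5736 higher. The sites with a string were wider, at the 5 loci (median 600 bp against 400 bp) and over the whole table (510 bp against 380 bp). The strings at the Axin2 and Sp5 promoter sites lay in DNA whose accessibility was within 1.5-fold between genotypes.

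Of the strings linked to partners of Smad2/3, the FoxH1 string TGTGGATT was in 2 sites, both at Axin2, and in 1.72% of all. One of them is the promoter site (-0.28) and the other the higher site 8264 bp upstream (0.98). The Otx2 string GGATTA was in 9 sites (14.5%), beside 13.3% of all, and the octamer ATGCAAAT, bound by Pou5f1, in 2 sites, beside 4.25%. The Smad string GTCTAGAC was in 0 sites, and 0.382% of all sites held it. A string is a match of letters, and no binding was measured.

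The other genes of the pathway were taken by the same distance rule. The 4 lists held 43 genes with 231 sites, of which 22 (9.52%) were lower and 25 (10.8%) higher, beside 16% and 8.51% of all sites. The median difference was 0.02. Of the 42 list sites within 1 kb of a TSS, 1 was lower, at Nanog, and 3 were higher, at Bcl9l, Rnf43 and Tle3, where 4.17% and 3.69% of all such sites were.

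Receptors and the destruction complex (12 genes, 68 sites) had 4 lower and 8 higher sites and a median of 0.17. Near Ctnnb1, which encodes β-catenin, sites 39780 bp and 18160 bp upstream were lower, at 4.88 in WT and 3.97 in DKO and at 4.37 and 3.57. The Ctnnb1 promoter site was at 6.60 and 6.68. Near the kinase gene Gsk3a a site was higher, at 6.44 and 7.26 (0.82), as were sites near the scaffold gene Axin1, at 4.62 and 5.27 (0.65), and near Dvl3, which relays the receptor signal, at 4.06 and 4.70 (0.64). All 5 of these sites lay closer to the TSS of another gene.

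Cofactors of Tcf/Lef (11 genes, 63 sites) had 9 lower and 8 higher sites, with a median of 0.08. Of the 9 lower sites, 7 were at Ctbp2, which encodes a corepressor and had 15 of the 63 sites. Its lower sites with concentrations of 2.22 and 3.37 were in the range under 4, where 29.8% of all sites were lower. The 3 largest Ctbp2 differences with a concentration of at least 4 were at 5.14 in WT and 3.49 in DKO (-1.65), 4.75 and 3.62 (-1.13), and 4.88 and 3.83 (-1.05). The Ctbp2 promoter site was at 8.27 and 8.02. Its paralog Ctbp1 had a higher site, at 4.12 and 5.07 (0.95). Near Pygo2, which links β-catenin complexes to chromatin, 1 site was at 4.58 and 5.50 (0.92) but was nearer to Pbxip1, and upstream of the Groucho corepressor gene Tle3, 1 was at 4.60 and 5.26 (0.66).

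Feedback and target genes (15 genes, 80 sites) had 7 lower and 6 higher sites, with a median of -0.13. The largest difference was 37646 bp from the TSS of the cyclin gene Ccnd1, at 4.83 in WT and 2.22 in DKO (-2.61), at a site nearer to Fgf15. The Ccnd1 promoter site was at 6.36 and 6.18. Upstream of Cdx2, a homeobox gene of the posterior embryo, sites were at 4.55 and 3.81 (-0.74) and at 4.64 and 3.99 (-0.65), both nearer to Urad. Higher sites lay downstream of the TSS of Myc, at 3.56 and 4.50 (0.94) and at 4.98 and 5.64 (0.66), and of that of Sp8, a relative of Sp5, at 4.33 and 5.20 (0.87). The mesoderm gene T had none of its 5 sites past the threshold.

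Genes that Tcf7l1 represses in ESCs (5 genes, 20 sites) had 2 lower and 3 higher sites, with a median of 0.05. The promoter site of Nanog, a pluripotency factor, was lower, at 5.64 in WT and 4.90 in DKO (-0.74), and so was a site 18769 bp upstream of Esrrb, at 4.60 and 3.91 (-0.69). Higher sites were 20335 bp downstream of the Tfcp2l1 TSS, at 4.23 and 5.62 (1.39), upstream of Klf2, at 5.72 and 6.67 (0.95), and 32455 bp downstream of the Nanog TSS, nearer to Slc2a3, at 3.78 and 4.38 (0.60). All 12 sites of Tcf7l1 itself were lower, as were 79 of the 81 sites 50 kb to 1 Mb from it.

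**Figure D4:**
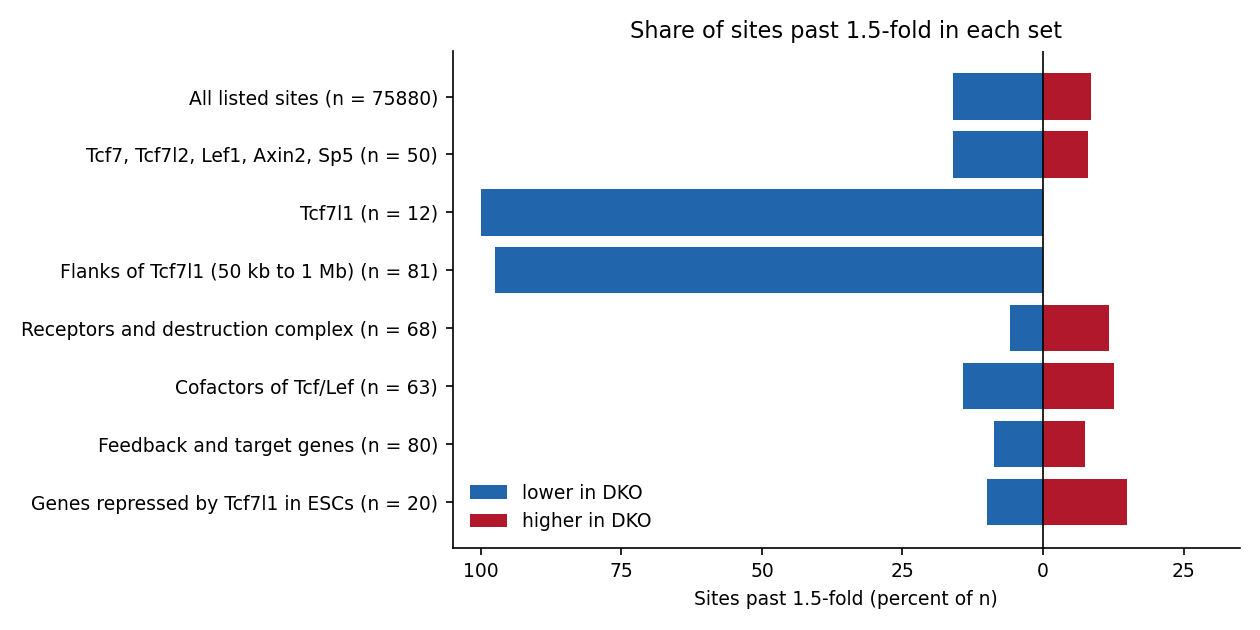
Percent of sites lower in DKO (blue, to the left) and higher in DKO (red, to the right) by more than 1.5-fold, for all 75880 sites, the 5 loci, Tcf7l1, the sites 50 kb to 1 Mb from Tcf7l1 and the 4 lists of other Wnt pathway genes. The bars of the 5 loci (16% and 8%) are close to those of all sites (16% and 8.51%), and those of Tcf7l1 (100%) and its flanks (97.5%) stand apart.

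The farthest site inside 50 kb was that of Tcf7l1 at 48230 bp, with a difference of -0.70, and the nearest outside was 50605 bp from Tcf7, at 5.62 in WT and 5.52 in DKO (-0.10). ATAC-seq measures accessibility and not expression, and these values say nothing of the level of the 6 transcripts.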

How the data were processed

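ATAC-seq libraries of day 2 EpiLCs were made from 3 differentiations per genotype. The authors aligned reads to mm10 with bowtie2, kept unique reads outside blacklisted regions, removed duplicates with Samtools, called sites from triplicates against a Tn5-treated genomic DNA control with DANPOS2, and compared them with DiffBind. Versions, the DiffBind normalization and any Tn5 offset are not given in the sources used here. The deposited concentrations are log2 mean normalized reads, pooled over libraries and per genotype; 3 further columns hold the authors' fold changes, p-values and FDRs and were not used.

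Differences were DKO minus WT concentrations, and sites were assigned with curated RefSeq TSSs (GRCm38) in Python 3.11.15 with pandas 2.3.3 and pysam 0.24.0. Coordinates are as the table gives them, and whether its starts count from 0 or 1 is not stated. Sites past 1.5-fold were counted as lower or higher. A median counted as moved under another setting where it shifted by more than 0.1 on the log2 scale. Sites given in full were, per member, the one nearest to a TSS, the one with the largest difference and every one past the threshold, with some others named after their values were seen. In each list they were the 3 largest differences per direction at a concentration of at least 4, and promoter sites of those genes were added later. The members and lists were chosen with earlier results of these data known. Since the concentrations used here are 1 mean per genotype, with no value per library, no test, standard error or replicate check was made from them, and the depth of each library is unknown. The counting of sites and the search for runs were checked on simulated data. The control library was not analysed here, and a comparison of the factors' proteins was not made.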

Additional observations from a re-analysis of the deposited data

How the results depend on the processing

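At Tcf7, Tcf7l2, Lef1, Axin2 and Sp5, 8 lower and 4 higher of 50 sites became 15 and 10 past 0.32 on the log2 scale. They became 1 and 2 at 2-fold, and 5 and 8 relative to the local median. Other settings also changed the number of sites. The counts were 5 and 2 of 41 at a concentration of at least 4, and 3 and 2 of 23 within 10 kb of a TSS. Of the 43 sites whose nearest TSS is that of the gene, 4 were lower. No share of all sites is given here for the 0.32 setting. At Tcf7l1 the 12 lower and 0 higher of 12 sites became 8 and 0 at 2-fold, and 2 and 2 relative to the local median. Within 10 kb, 2 of 2 sites were lower, and with all RefSeq transcripts 20 of 21 were. The Tcf7l1 median turned from -1.15 to 0.18 relative to the local median. That setting subtracts the median of the flanks (-1.33), so by median the Tcf7l1 sites were no lower than their flanks. By summed normalized reads the order was reversed, with a log2 ratio of DKO to WT of -1.273 at Tcf7l1 and -1.201 in the flanks. The median concentration was 5.075 at Tcf7l1 and 4.53 in the flanks. For the other Wnt pathway genes, 22 lower and 25 higher of 231 sites became 45 and 52 past 0.32 on the log2 scale, and 10 and 4 at 2-fold. They were 13 and 16 of 198 at a concentration of at least 4, and 6 and 11 of 93 within 10 kb. Within 100 kb they were 41 and 44 of 420, and with the nearest-TSS rule 13 and 14 of 118. A stricter fold, a narrower distance and a minimum concentration each leave fewer sites to count. Of 94 alternatives computed, 58 were labelled as close to the reported value, 35 as moved and 1 as reversed. For counts of sites the label did not follow the share of the sites left. At Tcf7l1, 2 lower of 2 sites within 10 kb was labelled as moved, and 8 of 12 at 2-fold as close. The shares of all sites without the chromosome 6 segment and within 1 kb of a TSS were added after seeing the data. No paired analysis was possible because the table holds 1 mean per genotype, and for the same reason no library could be left out. The depth of each library is unknown, so no limit set by depth could be computed.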
